A study of Mus musculus with 8 samples.

Results

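A list of 46 genes, made up of imprinted genes from the main mouse clusters and the imprint regulator Zfp57, was followed by symbol through the mRNA-seq table of murine hepatoma cells depleted of KAP1 (TRIM28). Of these 46 genes, 44 had an Ensembl identifier in the annotation used here, 27 had a row in the table of 21915 genes, and 19 passed the filter on low counts among 14142 tested genes. Kcnq1ot1 and Peg13, long non-coding RNAs of the Kcnq1 and Trappc9 regions, had no identifier and were not analysed here. The series holds 8 samples, of which the 4 mRNA-seq libraries of Hepa 1-6 cells carry these results, while 4 small RNA libraries list only tRNA and snoRNA sequences. Of those 4, 1 is from control and 1 from Kap1 KD Hepa 1-6 cells, and 1 is from wild-type and 1 from Kap1 KO primary mouse hepatocytes, used directly after isolation. All Hepa 1-6 cells were collected 5 days after transduction. Hepa 1-6 is an established mouse hepatoma line. The 2 Kap1 KD libraries came from cells given a lentiviral pLKO vector with a short hairpin against Kap1, and the 2 control libraries from cells given the vector without it (named control shRNA in 1 label field), with puromycin selection in the study's methods. The labels give the number 2 to 1 library of each group, and the unnumbered library of each group was taken as replicate 1, so that this pairing is partly inferred. No label says that the libraries came from separate cultures, so that p-values measure only the spread between these samples, which may be technical.

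Imprinted genes are transcribed mainly from 1 parental allele, chosen by DNA methylation that was set in the egg or the sperm and is kept through the divisions of the embryo at imprinting control regions. ZFP57 is a KRAB zinc finger protein that recognizes the hexamer TGCCGC when its CpG is methylated and brings KAP1 with the histone methyltransferase SETDB1 and the DNA methyltransferases to these regions, mostly in embryonic cells. Many imprinted genes, among them Igf2 and H19, are abundant in fetal liver and decline after birth. Libraries of total expression, as here, do not separate the alleles.

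The sequences most relevant to the locus described first are hexamer matches around the start of Nnat, the imprinted gene that lies inside the Blcap transcription unit on the opposite strand. The following 30-base stretches of mm9 all lie within 1 kb of the Nnat start and carry the match in capitals. The first pair overlap each other and lie in a Blcap exon upstream of Nnat, and the other 4 lie in annotated Nnat exon sequence.
site 1 (chr2:157385503-157385532, - strand): ccgcgtaaccagTGCCGCgccaaaatatac
site 2 (chr2:157385517-157385546, - strand): acaaattctacaTGCCGCgtaaccagtgcc
site 3 (chr2:157385829-157385858, - strand): tgctgggcgcaaTGCCGCagccccggtggc
site 4 (chr2:157386061-157386090, + strand): ccatatcgcgatTGCCGCccctacccaacc
site 5 (chr2:157386093-157386122, + strand): tcctatcccaatTGCCGCaatccctgtgta
site 6 (chr2:157386117-157386146, + strand): tgtgtaccaaagTGCCGCggtggtactatt
The 250 bases upstream of the RefSeq starts of both genes, in GRCm38.p6, are shown to set the sequence before each start beside these sites. Neither promoter holds TGCCGC or its reverse complement GCGGCA, and each holds 12 CpG dinucleotides.
Blcap promoter (chr2:157566362-157566611, - strand): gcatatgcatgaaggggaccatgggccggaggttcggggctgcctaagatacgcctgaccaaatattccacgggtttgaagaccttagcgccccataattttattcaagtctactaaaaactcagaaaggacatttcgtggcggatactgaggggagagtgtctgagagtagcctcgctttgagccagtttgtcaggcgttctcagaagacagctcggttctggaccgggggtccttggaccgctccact
Nnat promoter (chr2:157559828-157560077, + strand): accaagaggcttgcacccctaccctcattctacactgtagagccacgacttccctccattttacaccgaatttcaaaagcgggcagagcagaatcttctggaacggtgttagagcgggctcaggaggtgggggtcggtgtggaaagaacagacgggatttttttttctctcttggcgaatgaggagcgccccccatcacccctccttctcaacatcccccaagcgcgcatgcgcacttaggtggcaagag

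Both strands of a 2001-base window centred on each gene start in mm9 were searched for the same hexamer. It occurred in 24 of the 44 annotated list genes (54.5%), in 14 of the 27 listed ones (51.9%) and in 9811 of 21804 listed genes as a whole (45%). The windows of Nnat, Peg3 and Plagl1 held 6 matches and those of Airn and Nap1l5 held 5. Windows with at least 5 matches made up 1.03% of all listed genes, 11.1% of the 27 (3 genes) and 11.4% of the 44 (5 genes). The hexamer holds a CpG, and the median window had 62 CpG dinucleotides over all listed genes, 75 over the 27 and 78.5 over the 44. The part of this difference in the match counts was not tested. The windows of Zfp57 and Blcap held none. For Blcap this window is centred on the outermost annotated start, whereas the RefSeq promoter printed above, matched by its letters to mm9, ends at a start 4913 bases further into the gene. A window of the same length at that inner start held 1 match, 92 bases after the start. For Nnat both starts are the same base. The window of Mest held 0 matches, though a RefSeq promoter of that gene held 2. A window at the outermost start can thus miss other promoters of a gene, which limits the shares above. In the 250-base RefSeq promoters, 7 of 54 promoters of 37 list genes held the hexamer (13%), against 2850 of 32851 promoters in all (8.68%). Those 7 promoters belonged to Mcts2, Meg3, Mest, Nap1l5, Plagl1 and Zim1. Mest entered with overlapping promoters (chr6:30737800-30738049 and chr6:30737803-30738052), so that nearly the same sequence was counted more than once. A match is a run of letters and carries no measurement of binding or methylation in these cells.

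The mRNA-seq libraries held 41566888 to 53605115 counts. Trim28, the targeted gene, stood at 456 and 575 normalised CPM (read counts relative to library size, scaled by TMM) in control and at 106 and 78.9 in Kap1 KD cells. Both Kap1 KD libraries thus lay far below both controls, with a log2 fold change of -2.48 (SE 0.25) and, by the quasi-likelihood test of edgeR, an unadjusted p of 0.00021 but an adjusted p of 0.9999 over 14142 genes. Of 8 hepatocyte or hepatoma markers, Alb, Afp, Hnf4a, Apob and Fgb were present, with Alb at a mean of 1308 CPM in control, while Apoa1, Ttr and Serpina1a were near 0 at 0.373, 0.12 and 0.0381 CPM. The 8 markers summed to 2439 and 2053 CPM in control and to 1697 and 1068 in Kap1 KD cells, a difference whose part in the results below was not tested. The listed markers of blood cells summed to 4.23 to 9.78 CPM, those of endothelium to at most 0.282, those of stellate cells to 1.60 to 2.42 and those of embryonic stem cells to 0.321 to 0.464.

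At the level of the whole list, no imprinted gene passed 1.5-fold and an adjusted p under 0.05 in edgeR without a replicate term, which called 0% of all tested genes in either direction, Trim28 included. None of the 19 had an unadjusted p under 0.05, against 185 of 14142 genes (1.31%). DESeq2 without the replicate number also called none of the 19, and it called 0.0141% of tested genes higher and 0.00707% lower. The median log2 fold change of the 19 was -0.01, with a range from -0.39 to 0.85, beside -0.02 over all tested genes. Within replicate numbers, 4 of the 19 were higher in Kap1 KD cells both times, 6 were lower both times and 9 changed sign, where 32.8% of all tested genes were higher and 38.1% lower both times. The difference between control replicates exceeded the fitted change in 17 of the 19, a larger share than the 10499 of 14142 genes. The median size of that difference was 0.49 on the log2 scale in the 19 and 0.35 over all tested genes. With the replicate number as a block, edgeR called 3 of the 19 higher (Blcap, Gnas and Igf2) and none lower, where it called 2.06% and 2.40% of tested genes. With the block, DESeq2 called only Blcap, and gave no adjusted p for Airn, Grb10, Mkrn3 and Nnat. It called 0.965% higher and 1.09% lower of the 11400 genes to which it gave an adjusted p. The blocked edgeR fit leaves 1 residual degree of freedom per gene, so that its p-values rest on a spread shared across genes.

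**Figure D1:**
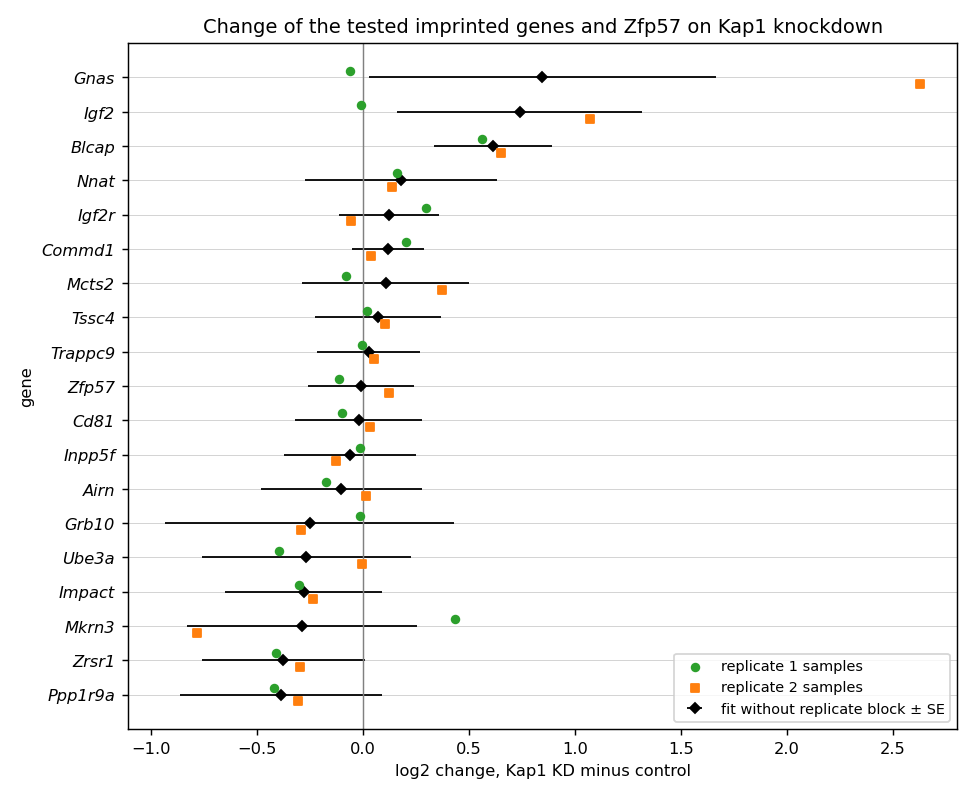
Log2 change in Kap1 KD against control cells (x axis) for the 19 tested genes (y axis); diamonds are the edgeR fit without a replicate block with bars of 1 SE, circles and squares the changes between the replicate 1 and replicate 2 libraries after adding 0.1 CPM. Blcap has both points near its fitted value of 0.61, while Gnas and Igf2 have replicate 1 points near 0 and replicate 2 points at 2.63 and 1.07.

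Blcap, a small conserved protein described as a suppressor of growth in bladder cancer and maternally favoured in brain, occupies 157382098 to 157397010 on the minus strand of mm9 chromosome 2 (ENSMUSG00000067787). It was measured at 41.0 and 55.3 CPM in control and at 60.6 and 86.8 CPM in Kap1 KD cells, with 2284 to 4062 counts per library. Both Kap1 KD libraries lay above both controls, and the gain was alike in size within replicate 1 (0.56 on the log2 scale) and replicate 2 (0.65). The group means were 48.2 ± 10.1 and 73.7 ± 18.5 CPM (SD, n = 2 each), a log2 fold change of 0.61 (SE 0.28) with an unadjusted p of 0.081 and an adjusted p of 0.9999 in edgeR without the block. When the replicate number entered as a block, the change was 0.61 in edgeR (adjusted p = 1.0e-11) and 0.62 in DESeq2 (adjusted p = 1.4e-07). Leaving out any 1 library left it between 0.34 and 0.87. None of its annotated exon length is overlapped by another gene. Only Blcap and Commd1 of the 19 had both Kap1 KD libraries above both controls, and none had both below, where 9.69% and 10.6% of all tested genes did.

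Nnat, or neuronatin, a paternally expressed membrane proteolipid of brain and pancreatic islets, lies inside Blcap from 157385814 to 157388258 on the plus strand. Sites 3 to 6 above lie within Nnat, and sites 1 and 2 lie upstream of its start. The counts of Nnat were 24 and 15 in the controls and 21 and 16 after knockdown, or 0.431 and 0.302 against 0.493 and 0.342 CPM. The groups overlapped, and the log2 fold change was 0.18 (SE 0.45, unadjusted p = 0.708). Per kb of exon, Blcap stood at 15.8 CPM and Nnat at 0.2 CPM in control cells.

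**Figure D2:**
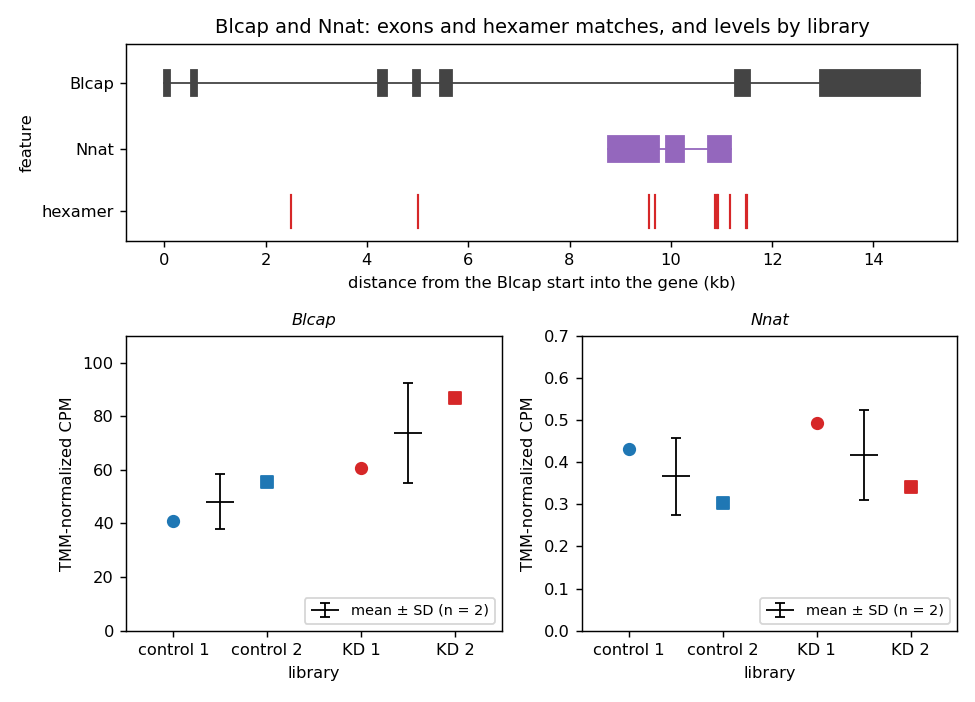
Top, exons (boxes) of Blcap and Nnat and TGCCGC matches on either strand (ticks) by distance from the Blcap start in kb; bottom, CPM of each gene by library with the mean ± SD of each group (n = 2), on axes of different scale. Matches cluster at the start of Nnat, Blcap is higher in both Kap1 KD libraries than in both controls, and Nnat overlaps between groups below 0.5 CPM.

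Zfp57 itself, the KRAB zinc finger gene that gives the list its regulator, was transcribed in these cells at a level above that of most genes. Its mm9 position is chromosome 17, plus strand, 37138108 to 37147580 (ENSMUSG00000036036). The libraries gave 75.0 and 53.0 CPM in control and 69.3 and 57.8 CPM in Kap1 KD cells, from 2632 to 4176 counts. Replicate 1 was the higher library of each group, and the groups overlapped. The change was -0.11 within replicate 1 and 0.12 within replicate 2, and the fitted log2 fold change was -0.01 (SE 0.25, unadjusted p = 0.968). With the block it was 0.0042 (adjusted p = 0.979 in edgeR). Per kb of exon, its control level of 16.9 CPM was above that of 72.9% of the 14118 tested genes with a known length. Zfp445, the other KRAB zinc finger gene known to act at imprints, stood at 3.94 CPM per kb, and Trim28 at 127 CPM per kb.

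**Figure D3:**
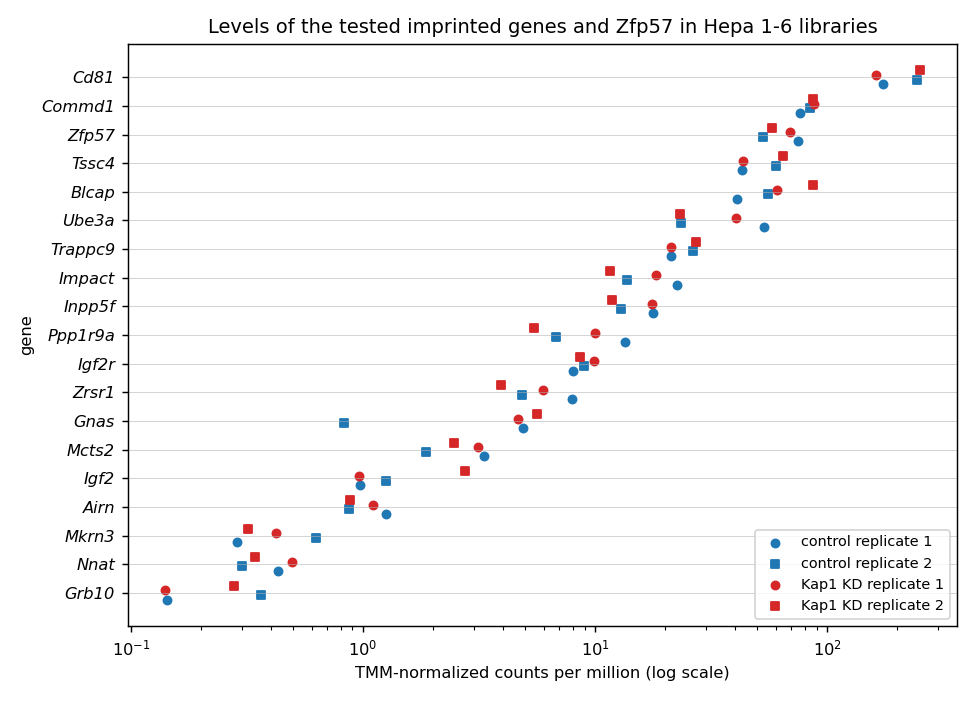
TMM-normalized CPM on a log axis of the 19 tested genes (y axis) in the 4 libraries, control in blue and Kap1 KD in red, circles for replicate 1 and squares for replicate 2. Levels run from below 0.2 CPM for Grb10 to 250 CPM for Cd81, and 1 control library of Gnas at 0.826 CPM stands apart from the other 3.

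In the Igf2-H19 cluster, Igf2, the fetal growth factor expressed from the paternal allele, was low. It had 0.969 and 1.25 CPM in control and 0.962 and 2.74 CPM in Kap1 KD cells. Only Kap1 KD replicate 2 was high, with 128 counts against 41 to 62 in the others, and the groups overlapped. The log2 fold change was 0.74 (SE 0.58, unadjusted p = 0.259), made of -0.01 within replicate 1 and 1.07 within replicate 2. The replicate block gave 0.66 with an adjusted p of 0.0243 in edgeR and 0.516 in DESeq2, and without Kap1 KD replicate 2 the change was -0.20. H19, the maternally expressed non-coding RNA of the same cluster, had 1, 0, 2 and 1 counts in control replicates 1 and 2 and Kap1 KD replicates 1 and 2. These counts are at or below the floor of 3 counts per library, so that no fold was computed.

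In the Igf2r-Airn cluster, Igf2r, the receptor that clears IGF2 and is read from the maternal allele, was measured at 7.99 and 8.95 CPM in control and at 9.84 and 8.59 CPM in Kap1 KD cells. Its groups overlapped, with a log2 fold change of 0.12 (SE 0.23). Airn, the paternal non-coding RNA that silences Igf2r on its own allele in other tissues, was detected at 1.26 and 0.867 against 1.10 and 0.876 CPM. Its log2 fold change was -0.10 (SE 0.38), and its groups overlapped too.

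At Gnas, which encodes the stimulatory G protein subunit and several transcripts imprinted in different ways, the control libraries differed more than the conditions. The libraries gave 4.88 and 0.826 CPM in control and 4.67 and 5.62 CPM in Kap1 KD cells. Control replicate 2 had 41 counts where the other 3 libraries had 199 to 272, and those 3 lay close together. The log2 fold change was 0.85 (SE 0.82, unadjusted p = 0.35), with -0.06 within replicate 1 and 2.63 within replicate 2. The block gave 1.03 (adjusted p = 1.8e-08 in edgeR and 0.571 in DESeq2), and without control replicate 2 the change was 0.10. Of the exon length of Gnas, 22% is overlapped by genes of the other strand, Nespas among them, and the strand setting of the counting is not given in the sources used here, so that reads of these genes may not be told apart.

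In the Kcnq1 cluster, both genes at the edge of the domain were well expressed. Cd81, a tetraspanin of the cell surface, had the highest level per kb of the 19 (92.2 CPM in control) and was measured at 174 and 245 CPM in control and 163 and 250 CPM in Kap1 KD cells. Tssc4 had 42.7 and 59.9 against 43.4 and 64.4 CPM. For both genes replicate 2 was the higher library in each group, the groups overlapped, and the log2 fold changes were -0.02 (SE 0.30) and 0.07 (SE 0.30). Of the exon length of Tssc4, 12.5% is overlapped by Trpm5 on the other strand. Kcnq1, Phlda2 and Slc22a18, a potassium channel, a placental growth regulator and a transporter of the same domain, had at most 9 counts in any library.

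In the Snrpn-Ube3a and Peg10 regions, the genes with the most counts were lower in Kap1 KD cells, by less than 1.5-fold, though Ube3a hardly differed within replicate 2. Ube3a, the ubiquitin ligase read from the maternal allele in neurons, was measured at 53.2 and 23.4 CPM in control and at 40.4 and 23.3 CPM in Kap1 KD cells. The replicate 1 libraries were the higher ones, and the log2 fold change was -0.27 (SE 0.49), with -0.40 within replicate 1 and -0.0063 within replicate 2. Ppp1r9a, or neurabin, a cytoskeletal scaffold at the edge of the Peg10 region, had 13.4 and 6.79 against 10.0 and 5.47 CPM, a log2 fold change of -0.39 (SE 0.48). Mkrn3, a makorin zinc finger gene, had 15 to 31 counts per library and changed by 0.43 within replicate 1 and -0.79 within replicate 2.

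Impact, an inhibitor of the GCN2 stress kinase, and Zrsr1, a splicing factor retrogene, showed the same order of the libraries as Ppp1r9a. Impact was measured at 22.5 and 13.7 CPM in control and at 18.2 and 11.6 CPM in Kap1 KD cells. Zrsr1 was measured at 7.97 and 4.84 against 5.96 and 3.91 CPM. Their log2 fold changes were -0.28 (SE 0.37) and -0.38 (SE 0.39), and in both the groups overlapped because the replicate numbers differed more than the conditions. With the replicate block and no minimum fold, edgeR gave Ube3a, Ppp1r9a, Impact and Zrsr1 adjusted p-values of 0.0363, 0.0162, 0.0314 and 0.046, so that 3 of the 19 were higher and 4 lower, where 10.1% and 11.5% of tested genes were. DESeq2 with the block gave these 4 adjusted p-values of 0.407, 0.272, 0.313 and 0.404. Blocked edgeR with median-of-ratios factors gave 0.0571, 0.0221, 0.0419 and 0.0564, and without the filter on low counts 0.0871, 0.0178, 0.0545 and 0.0479, so that of the 4 only Ppp1r9a stayed under 0.05 in each blocked edgeR fit, and none did in DESeq2. All 4 changes were below the 1.5-fold minimum of the study. Zrsr1 lies inside Commd1, which takes part in copper handling. Of the exon length of Zrsr1, 6.18% is overlapped by Commd1 on the other strand. Commd1 was measured at 76.5 and 84.6 CPM in control and at 88.1 and 86.7 CPM in Kap1 KD cells, a log2 fold change of 0.12 (SE 0.17). Both Kap1 KD libraries of Commd1 were above both controls by a small margin. Of its exon length, 31.6% is overlapped by B3gnt2 or Zrsr1, and 29.2% is overlapped on its own strand.

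For the remaining tested genes, the fitted changes were smaller than their SE. Inpp5f, an inositol phosphatase with an imprinted brain isoform, had 17.8 and 12.9 against 17.6 and 11.8 CPM, a log2 fold change of -0.06 (SE 0.31). Mcts2, a retrogene inside H13, had 3.30 and 1.87 against 3.12 and 2.46 CPM, a log2 fold change of 0.11 (SE 0.39). Both Mcts2 and Zrsr1 are retrogenes with a related parent gene elsewhere, and since 1 alignment was kept per read, their counts are uncertain. Trappc9, a trafficking gene maternally favoured in brain, had 21.2 and 26.3 against 21.2 and 27.3 CPM, a log2 fold change of 0.03 (SE 0.24). Grb10, an adaptor that dampens insulin signalling and whose isoforms are imprinted in opposite ways, had only 6 to 18 counts per library.

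Much of the list was not expressed at a level that could be compared. Of the 27 genes with a row, 8 did not pass the filter: H19, Rian, Kcnq1, Phlda2, Slc22a18, Mest, Ndn and Nap1l5, with 0 to 9 counts per library. Mest, a paternally expressed hydrolase of fetal tissues, gave 7 and 3 counts in the controls and 5 and 1 after knockdown. Ndn, or necdin, and Rian, a non-coding RNA of the Dlk1-Meg3 cluster, had 1 count each, both in control replicate 1. These are a description of low counts, and no difference was detectable at this depth. A further 17 annotated genes had no row: Slc22a3, Dlk1, Meg3, Mirg, Rtl1, Cdkn1c, Ascl2, Peg3, Usp29, Zim1, Plagl1, Snrpn, Magel2, Peg12, Peg10, Sgce and Rasgrf1. The table holds only genes with at least 1 count over the 4 libraries, and these genes were not analysed further here. By parent of origin, 7 of the 23 genes labelled paternally expressed were tested, with a median log2 fold change of -0.10. Of the 19 labelled maternally expressed, 8 were tested, with a median of 0.05, beside -0.02 over all tested genes. These labels come from other tissues for some genes, such as brain or neurons for Ube3a, Blcap and Trappc9. Which allele was active in these cells was not measured, so that the medians do not compare the alleles.

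The machinery that sets and keeps imprints was followed as a second list of 36 genes, of which 34 had a row and 32 were tested. Trim28, the targeted gene, was the only one called, lower, with the replicate block, where edgeR called 2.06% of tested genes higher and 2.40% lower. The median log2 fold change was -0.12, beside -0.02 over all tested genes. Lower values within both replicate numbers were seen in 20 of the 32 and higher values in 5, where 38.1% and 32.8% of all tested genes did the same. The median and the 20 include Trim28, which the hairpin targets. After Trim28, the largest changes were those of Tet2, Arid4b, Hells and Zfp42. Tet2, an enzyme that oxidizes methylated cytosine, changed by -0.44 (SE 0.71) and Arid4b, a chromatin adaptor, by -0.38 (SE 0.71). Hells, a remodeller needed for DNA methylation, changed by -0.37 (SE 0.53) and Zfp42, a zinc finger gene of embryonic stem cells, by -0.33 (SE 0.45). Tet2 had 13.3 and 4.33 CPM in control and 9.41 and 3.59 CPM in Kap1 KD cells, Arid4b 22.6 and 7.42 against 16.9 and 6.20 CPM, and Zfp42 0.395 and 0.343 against 0.352 and 0.235 CPM. In each of these 3 genes replicate 1 was the higher library of both groups, and the groups overlapped. Within replicates 1 and 2, Tet2 changed by -0.50 and -0.26, Arid4b by -0.42 and -0.26 and Zfp42 by -0.13 and -0.40. Blocked edgeR gave adjusted p-values of 0.0136 for Tet2, 0.01 for Arid4b and 0.631 for Zfp42. Blocked DESeq2 gave 0.283 for Tet2 and 0.219 for Arid4b. These changes were less than 1.5-fold. Hells was measured at 104 and 45.9 CPM in control and at 77.8 and 38.4 CPM in Kap1 KD cells, so that its groups overlapped. Its change was -0.42 within replicate 1 and -0.26 within replicate 2. With the block it was -0.34 in edgeR (adjusted p = 4.6e-04) and -0.33 in DESeq2 (adjusted p = 0.021), less than 1.5-fold. The core methylation enzyme Dnmt1 stood at 241 and 245 against 241 and 262 CPM, and Setdb1, which KAP1 recruits, at 66.7 and 54.4 against 62.1 and 54.0 CPM. With no minimum fold, blocked edgeR gave 2 of the 32 higher and 8 lower, Trim28 among the lower, where 10.1% and 11.5% of all tested genes were. In blocked DESeq2 only Trim28 (9.1e-09) and Hells (0.021) had an adjusted p under 0.05.

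**Figure D4:**
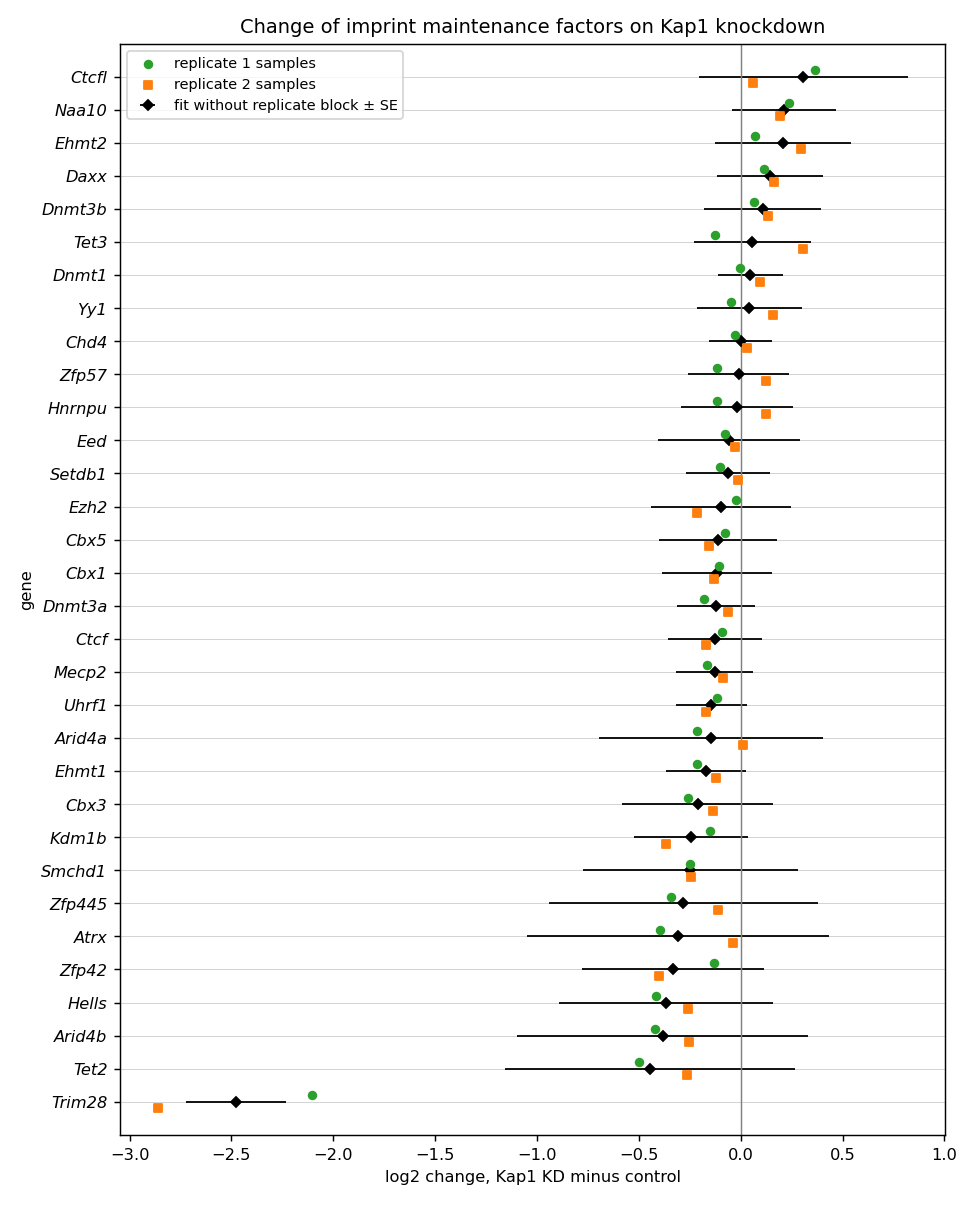
Log2 change in Kap1 KD against control cells (x axis) of the 32 tested imprint maintenance genes (y axis), drawn as in the plot of the imprinted genes: diamonds with bars of 1 SE for the fit, circles for replicate 1 and squares for replicate 2. Trim28 stands alone at -2.48, and the other genes lie between -0.44 and 0.31.

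Another list held 68 further imprinted genes or neighbours of the clusters, of which 46 had a row and 32 were tested. Ddc, the aromatic amino acid decarboxylase next to Grb10 that is imprinted in heart, was the only one of the 32 called with the block. With it, edgeR called 2.06% of tested genes higher and 2.40% lower, and DESeq2 0.965% and 1.09% of the 11400 genes to which it gave an adjusted p. Ddc was measured at 7.29 and 8.55 CPM in control and at 4.74 and 4.10 CPM in Kap1 KD cells, and both Kap1 KD libraries lay below both controls. Its log2 fold change was -0.84 (SE 0.26) with an unadjusted p of 0.0234 and an adjusted p of 0.9999 in edgeR without the block, and its blocked adjusted p was 6.7e-08 in edgeR and 0.00891 in DESeq2. The next largest changes were 0.42 for Tnfrsf26 (SE 0.25) of the Kcnq1 region, 0.41 for Adam23 (SE 0.82), -0.35 for Casd1 (SE 0.49) and 0.36 for Pdk4 (SE 0.32), none of which was called. Tnfrsf26 had 3.34 and 3.49 CPM in control and 4.55 and 4.57 CPM in Kap1 KD cells, and Pdk4 1.60 and 1.41 against 1.71 and 2.16 CPM, without overlap between groups. Casd1 had 17.3 and 7.84 against 12.5 and 7.25 CPM, and Adam23 0.108 and 0.242 against 0.0939 and 0.363 CPM (4 to 17 counts), and their groups overlapped. The median over the 32 was -0.02.

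The small RNA libraries held 1 snoRNA of the Snrpn to Ube3a region, Snord64 (mm9 chromosome 7, minus strand, 67123694 to 67123760). It gave 2 counts in the control and 0 in the Kap1 KD library of Hepa 1-6 cells, both under the floor of 3 counts. In primary hepatocytes it had 66 counts in the wild-type and 188 in the Kap1 KO library, or 21.8 and 17.1 CPM of all listed counts. The log2 ratio was 0.81 with TMM scaling (95% interval 0.40 to 1.24, counting error only) and -0.36 with total listed counts, so that its direction followed the scaling. With 1 library per condition there is no replicate check.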

How the data were processed

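The deposited files hold 4 mRNA-seq libraries and 4 small RNA libraries. For mRNA, the authors deposited raw counts per Ensembl gene, made from reads aligned to mm9 with TopHat2 2.0.11 (1 alignment per read) and counted with HTSeq 0.6.1 per the submitters' processing notes, with library totals of 41566888 to 53605115. For small RNA, the deposited tables give counts and a normalized signal per tRNA or snoRNA sequence, and the signal was not used. The hepatocyte count columns came as identical pairs, each counted once. Symbols and coordinates came from GENCODE M1 on the same build (21806 of 21915 identifiers matched), and promoters from RefSeq (GRCm38.p6), matched by symbol for 37 list genes.

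Counts were filtered with filterByExpr, scaled by TMM and tested over all 14142 genes with edgeR 4.0.16 (quasi-likelihood test, Benjamini-Hochberg adjustment) in R 4.3.3, without a replicate term. Calls needed 1.5-fold and an adjusted p under 0.05. The replicate block and DESeq2 1.42.0 were alternatives. Changes within replicate numbers were taken after adding 0.1 CPM, so that those of low genes are understated. An exact permutation test of 2 against 2 libraries cannot go below p = 0.333. Snord64 intervals cover counting error only, since the reads carry no molecular identifiers. The listed genes and the gene lists were chosen with earlier results of these data known. Per-library values were to be given for every tested list gene with a mean of at least 1 CPM, for Zfp57 and for Trim28, and from the other lists for genes called in any fit and the 5 largest changes; Nnat, Dnmt1, Setdb1 and the low-count genes quoted were added after their values were seen.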

Additional observations from a re-analysis of the deposited data

How the results depend on the processing

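With other size factors or no filter on low counts, and no block, edgeR still called none of the 19 list genes. In a check of the pairing, deviations from the group means of same-numbered libraries correlated at 0.80 across 14142 genes; with 2 numbers this is a hint from the data, and a call gained under the replicate block is not a larger effect. With the block, edgeR called 3 list genes of 631 genes in all, 1 maintenance factor and 1 of the other imprinted genes, and Trim28 changed by -2.48. DESeq2 with the block called 1 of 234 genes in all, 1 maintenance factor and 1 other imprinted gene (Trim28 -2.48), and without it 0 of 3, with 1 maintenance factor (Trim28 -2.47). Alternatives chosen after seeing the data gave, with the block and median-of-ratios factors, 3 list genes of 609, 1 and 1 (Trim28 -2.47), with the block and no filter 3 of 625, 1 and 1 (Trim28 -2.47), and with the block and no minimum fold 7 of 3052, 10 and 6.

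Leaving out 1 library, where a group with 1 library is assumed to vary like the other, called 0 list genes each time and 3 (without Kap1 KD replicate 2) to 65 genes (without Kap1 KD replicate 1) in all, 21 without either control, 1 maintenance factor each time (Trim28, -2.71 to -2.27) and 0 other imprinted genes. The median of the list ranged from -0.074 to 0.19. These fits had no replicate block, so that differences between the replicate numbers enter each change. Some genes listed next kept their sign within both replicate numbers, such as Ppp1r9a (-0.42 and -0.31), Impact (-0.30 and -0.24) and Zrsr1 (-0.41 and -0.30). Others did not, such as Igf2 (-0.01 and 1.07). The direction reversed for 15 genes, with ranges of -0.20 to 1.30 for Igf2, -0.32 to 0.19 for Airn, -0.36 to 0.27 for Cd81, -0.24 to 0.35 for Tssc4, -0.82 to 0.56 for Grb10, -0.75 to 0.39 for Mkrn3, -0.72 to 0.44 for Ube3a, -0.89 to 0.19 for Ppp1r9a, -0.10 to 0.46 for Nnat, -0.22 to 0.57 for Mcts2, -0.64 to 0.12 for Impact, -0.71 to 0.028 for Zrsr1, -0.22 to 0.26 for Zfp57, -0.38 to 0.21 for Inpp5f and -0.16 to 0.21 for Trappc9, and not for Blcap (0.34 to 0.87), Commd1 (0.046 to 0.21), Igf2r (0.022 to 0.23) or Gnas (0.096 to 2.63). The Zfp57 change of -0.01 also crossed 0 without the filter (0.00063), with the block (0.0042 in edgeR, 0.014 in DESeq2, 0.014 with median-of-ratios factors and 0.014 without the filter). The Snord64 log2 ratio moved to -0.36 with total listed counts. The causes were not tested. Counts below about 10 per library limit H19, Mest and the other low genes, for which no change could be detected.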
